A study of Mus musculus with 2 samples.

Results

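Secreted, granule and membrane proteins are made at the endoplasmic reticulum, and 49 genes of that route were described in granulocyte-monocyte progenitors (GMPs), marrow cells from which neutrophils and monocytes form. The genes were taken by symbol and cover signal recognition, the translocon, N-glycosylation, chaperones, stress sensors and degradation. All 49 symbols matched a row, out of 69691 rows of the gene table. The data are total RNA-seq of RNA over 200 nucleotides from primary GMPs of male C57BL/6J mice of 5 to 6 weeks, with spike-in RNA added and no treatment named in the labels. The 2 libraries form 1 group, a pool of 100 cells each, and keep the labels' replicate numbers 1 and 2. Both libraries carry 1 donor identifier and separate sample identifiers, and separate animals are not stated. An SD here is the spread of 2 libraries, possibly technical alone, and with 1 group no test between conditions was possible.

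A ribosome that translates a signal sequence is bound by the signal recognition particle and handed to the Sec61 channel, through which the chain enters the organelle. There it is glycosylated by the oligosaccharyltransferase, folded by chaperones and oxidised by protein disulfide isomerases, and failed chains are passed back to the cytosol for degradation. When unfolded proteins accumulate, the sensors IRE1 (Ern1), PERK (Eif2ak3) and ATF6 raise the output of this machinery through the factors XBP1, ATF4 and cleaved ATF6. GMPs make the proteases and peroxidase of the azurophil granules, all of which enter by this route.

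Many genes of this response are known to carry the endoplasmic reticulum stress element, CCAAT and CCACG separated by 9 bases, which is bound by NF-Y together with ATF6 or XBP1. RefSeq promoters of GRCm38.p6, 250 bases before to 50 bases after the gene start, were at hand for 40 of the 49 members. Atf6, Derl1, Hyou1, Manf, Ostc, Sec61a1, Srp19, Srp68 and Ssr2 had none at hand and were not searched. The element was searched on both strands and stood in 8 of these 40 promoters, or 20%, against 0.137% of all 27025 genes with a promoter. Since members were chosen from a response known for this element, the contrast is description only. The matches in those 8 members are shown so that the letters between and around them can be compared. The element is in capitals with 20 bases on each side, 5′ to 3′ on the strand of the gene, and where the capitals begin with CGTGG the element lies on the opposite strand.
Hspa5 (chr2:34772005-34772063, + strand): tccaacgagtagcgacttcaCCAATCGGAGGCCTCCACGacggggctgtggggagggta
Calr (chr8:84847055-84847113, - strand): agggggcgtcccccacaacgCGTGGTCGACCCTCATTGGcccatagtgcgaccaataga
Hsp90b1, distal (chr10:86705618-86705676, - strand): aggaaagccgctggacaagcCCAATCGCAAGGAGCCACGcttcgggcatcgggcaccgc
Hsp90b1, proximal (chr10:86705513-86705571, - strand): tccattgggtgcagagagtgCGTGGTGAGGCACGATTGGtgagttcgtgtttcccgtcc
Canx (chr11:50325780-50325838, - strand): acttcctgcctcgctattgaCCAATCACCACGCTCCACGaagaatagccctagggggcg
Pdia6 (chr12:17266471-17266529, + strand): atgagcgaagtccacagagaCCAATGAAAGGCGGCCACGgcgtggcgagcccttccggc
Dnajc3 (chr14:118937807-118937865, + strand): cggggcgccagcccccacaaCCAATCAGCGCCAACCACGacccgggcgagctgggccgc
Creld2 (chr15:88819500-88819558, + strand): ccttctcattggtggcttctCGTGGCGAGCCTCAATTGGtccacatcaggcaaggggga
Syvn1 (chr19:6046512-6046570, + strand): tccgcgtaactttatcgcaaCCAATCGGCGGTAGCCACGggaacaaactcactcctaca

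The related second element, ATTGG and CCACG separated by 1 base, stood in 2 of the 40 promoters, against 0.0444% of all genes. Herpud1 (chr8:94386357-94386407, + strand) holds it 52 bases before its start, shown here in capitals.
Herpud1: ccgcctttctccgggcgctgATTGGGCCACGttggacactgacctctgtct
In Dnajb11 it begins 7 bases after the RefSeq start. The plain CCAAT box, which the first element contains, was in 32 of the 40 member promoters against 41.1% of all genes. The XBP1 site TGACGTGG was in 0 of the 40 (0.714% of all genes) and the amino acid response element TGATG and AAT separated by 1 base, a site of ATF4, was in 0 (1.08% of all genes). The TATA box letters TATAAA were found in Calr alone (15.7% of all genes). These are matches of letters within one window and not measured binding.

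**Figure D1:**
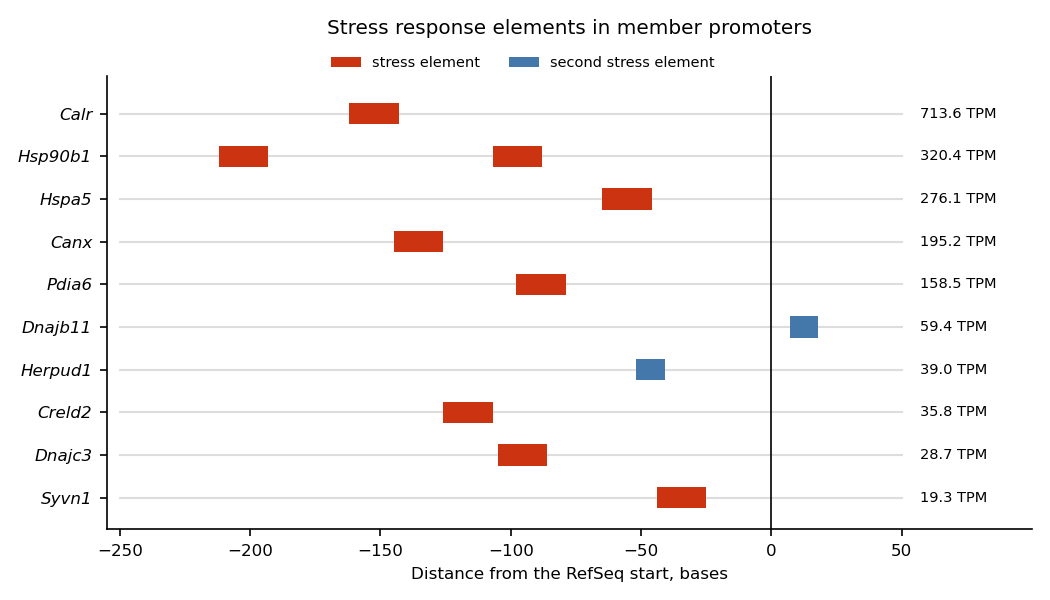
Position of the stress response elements in the RefSeq promoters of 10 members, in bases from the gene start (vertical line), with the mean TPM of both libraries at the right. Red bars are CCAAT and CCACG 9 bases apart, blue bars are ATTGG and CCACG 1 base apart, the grey line is the searched window, and genes run from the highest level, Calr at 714 TPM, to Syvn1 at 19.3 TPM.

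The 8 holders of the first element ranged widely in level. Their median of the mean TPM (a level scaled by transcript length and by library) was 177, from 19.3 TPM for Syvn1 to 714 TPM for Calr. The 30 members with a promoter and neither element had a median of 73.5 TPM, from 6.40 TPM for Eif2ak3 to 427 TPM for P4hb, so the ranges overlap. Outside the members, 29 genes held the element. Of these, Derl3, a paralog of Derl1 and Derl2, had 0.750 TPM in replicate 1 and 0 in replicate 2, and Ero1b, an oxidase that recharges disulfide isomerases, was at 9.14 and 9.43 TPM in replicates 1 and 2. Of the other 27 genes 20 had a row, and 4 of them reached 1 TPM in both libraries. The highest of these by far was Hnrnpa3, an RNA-binding protein outside the route, at 432 TPM in replicate 1 and 351 in replicate 2. Pan2, a deadenylase subunit, was at 10.3 and 9.74 TPM, Alg12, a mannosyltransferase of N-glycan assembly, at 6.80 and 6.23 TPM, and Adcy3, an adenylyl cyclase, at 1.77 and 1.07 TPM.

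The libraries held 40509954 expected counts in replicate 1 and 35675702 in replicate 2. Genes of the sort and of the granulocyte-monocyte lineage (Kit, Cd34, Fcgr3, Mpo, Elane, Cebpa and Ms4a3) were at 10 TPM or more in both libraries in 7 of 7 cases, from 35.7 to 6467 TPM on average. Plasma cells are another marrow cell rich in this machinery. Of 6 plasma cell markers with a row 0 reached 1 TPM in both libraries, the list summed to 0.490 TPM in replicate 1 and 1.74 in replicate 2, and Tnfrsf17, Prdm1 and Igkc had 0 counts in both. Macrophage markers (Adgre1, Cd68 and Marco) summed to 29.0 TPM in replicate 1 and 17.4 in replicate 2, mostly from Cd68, and their part in the member levels was not tested. The 3 B cell, 2 T cell and 3 stroma markers were at 0.005 TPM or less on average, and the 3 erythroid markers at 0.67 TPM or less. In bulk RNA, fewer cells that express a gene and less RNA per cell cannot be told apart.

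The members were expressed throughout. All 49 members reached 1 TPM in both libraries, against 45.6% of 21474 protein-coding genes, and 45 reached 10 TPM in both. On average 46 members stood at 10 TPM or more, against 6095 of the 21474 protein-coding genes. Their median of the mean TPM was 75.3, against 0.55 TPM for all protein-coding genes and 14.3 TPM for the 9782 that reached 1 TPM in both. On average 17 members stood at 100 TPM or more, against 2.94% of protein-coding genes. Together the 49 took 0.586% of TPM in replicate 1 and 0.552% in replicate 2. Leaving spike-ins, mitochondrial genes, ribosomal RNA and 4 very abundant loci out of the TPM total would multiply every member level by 1.90 in replicate 1 and 1.83 in replicate 2.

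By role, the medians of mean TPM ran from high to low as follows. The translocon-associated protein complex had a median of 180 TPM, the disulfide isomerases 159 TPM and the oligosaccharyltransferase 122 TPM. Chaperones stood at 79.2 TPM and the signal recognition particle at 76.1 TPM. The translocon had 34.4 TPM, the degradation genes 28.3 TPM and the sensors and factors 25.4 TPM. This order rests in part on the division by length. On CPM, counts scaled to the library total alone, 23 of 28 pairs of roles kept it. By median CPM the sensors and factors stood above the signal recognition particle and the degradation genes in both libraries. The disulfide isomerases stood above the translocon-associated protein complex in both. The place of the translocon in TPM also rests on how reads shared with near-identical copies of Sec61g were assigned. With the rows of copies summed its median was 99.7 TPM, above the chaperones at 79.2 TPM and the signal recognition particle at 83.6 TPM. Within a role the highest member stood from 2.80 times (Herpud1 over Derl2) to 51.1 times (Sec61b over Sec61g) above the lowest, and 28.0 times among the chaperones (Calr over Dnajb9). Of 17 members at 100 TPM or more, 0 were sensors, factors or degradation genes.

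**Figure D2:**
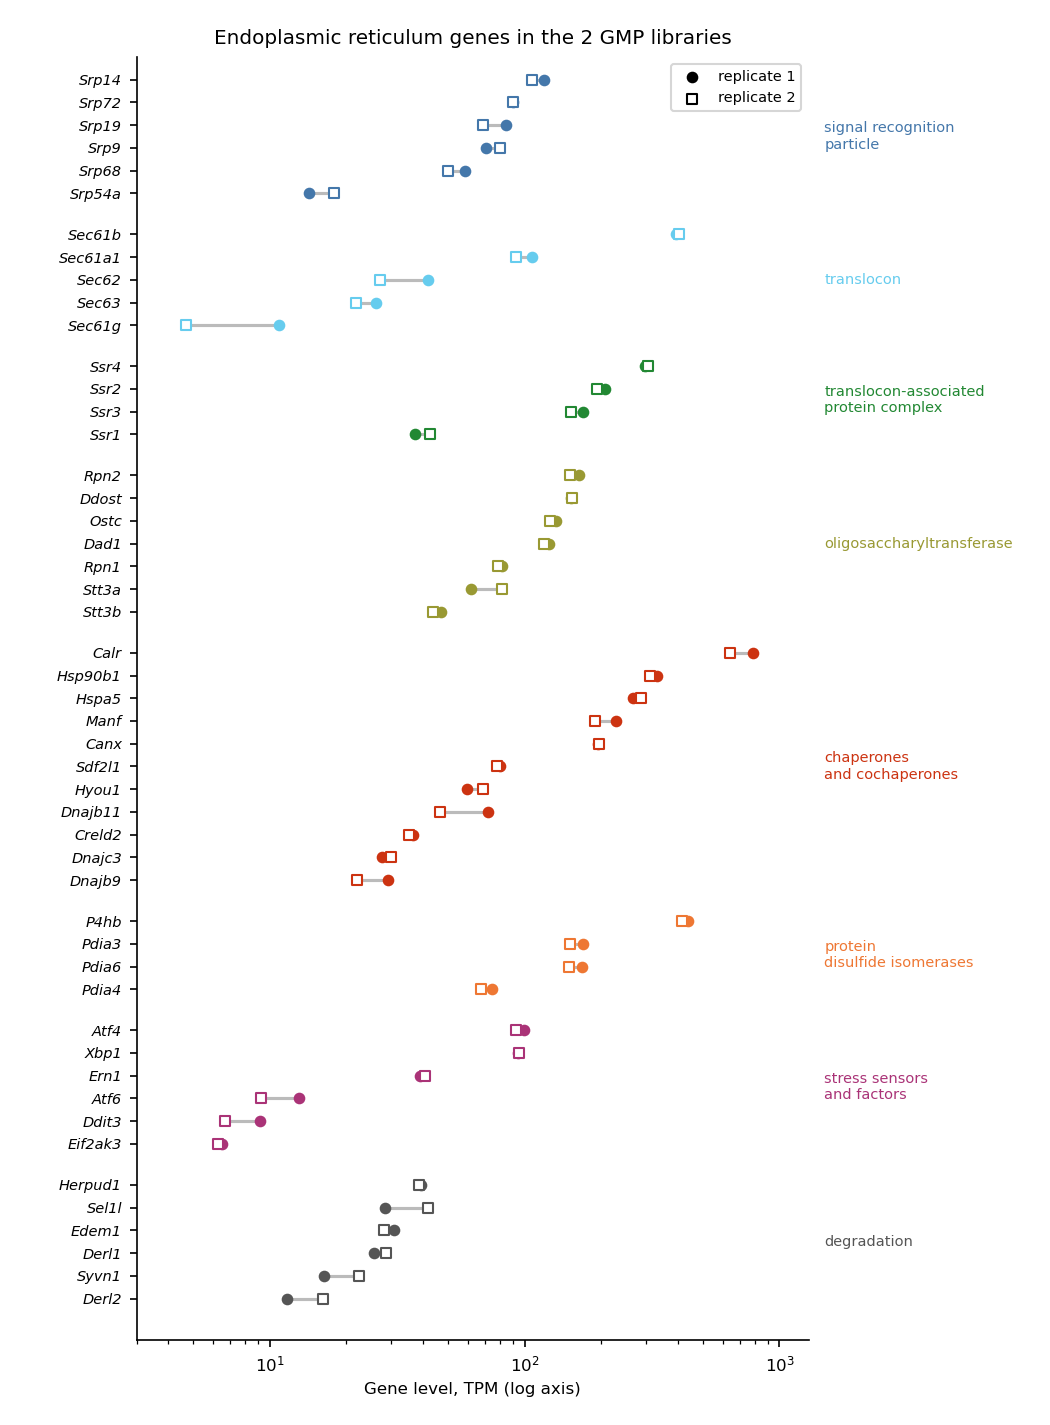
Level of the 49 members in TPM (log axis) by role, with replicate 1 as filled circles, replicate 2 as open squares and a line between them. Calr lies highest at 786 and 642 TPM and Eif2ak3 and Sec61g lowest, and most pairs of points nearly touch while Sec61g, Sec62 and Dnajb11 are over 1.5-fold apart.

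The signal recognition particle genes lay between 54.4 and 113 TPM on average, apart from the one for its signal-binding subunit. Srp14, which with Srp9 forms the domain that slows translation, had 119 TPM in replicate 1 and 107 in replicate 2. Srp9 was at 70.3 and 80.2 TPM in replicates 1 and 2. Srp72 had 90.4 TPM in replicate 1 and 90.3 in replicate 2, and its partner Srp68 had 58.6 and 50.2 TPM, so Srp72 was the higher of that heterodimer in both libraries. Srp19, which helps the particle assemble on its RNA, was at 84.9 and 69.0 TPM. Srp54a (chromosome 12, 55080262 to 55115367), whose product reads the signal sequence, had 14.3 TPM in replicate 1 and 17.9 in replicate 2, below every other subunit in both libraries.

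The Srp54a value is split among near-identical copies. Its 1515-base transcript is 100% identical over its whole length to a transcript of Srp54b and 99.6% identical to one of Srp54c. Both transcripts sit in the table row of Srp54c, which held 4517 counts in replicate 1 and 3192 in replicate 2, against 569 and 637 counts on Srp54a. The posterior SD of the count, the uncertainty of assigning shared reads that the tables give, was 11.3% of the Srp54a count in replicate 1 and 8.94% in replicate 2. Summed over both rows the level was 73.9 TPM in replicate 1 and 64.4 in replicate 2, within the range of the other subunits. Srp9 has a processed pseudogene, Gm13736, identical over 253 bases, with 59.5 counts in replicate 1 and 190 in replicate 2. The 2 rows of Srp9 summed to 90.6 TPM in replicate 1 and 151 in replicate 2, which is 1.67-fold apart. Its mean of 121 TPM is above the range given for the single rows, and in replicate 2 the sum exceeds Srp14. In counts the 2 rows summed to 2366 and 2504, with 97.5% and 92.4% of them on Srp9. The 1.67-fold difference in TPM rests mostly on the 253-base Gm13736, at 20.3 TPM and 71.0 TPM.

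In the Sec61 channel the split was larger. Sec61b, a small subunit, had 393 TPM in replicate 1 and 404 in replicate 2. Sec61a1, the channel itself, was at 107 TPM and 92.5 TPM, so the small subunit stood 4.0 times higher on average. In CPM (counts scaled to the library total, not by length) the order was the reverse, with 195 and 193 for Sec61a1 and 115 and 121 for Sec61b, so it rests on the division by length. Sec61g (chromosome 11, 16500530 to 16508484), the other small subunit, had only 10.9 TPM in replicate 1 and 4.70 in replicate 2. These rest on 222 and 68.6 counts. As CPM these are 5.48 (95% Wilson interval 4.81 to 6.25) and 1.92 (1.53 to 2.45), intervals that cover counting error only. The posterior SD was 6.73% of the Sec61g count in replicate 1 and 16.8% in replicate 2.

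A far larger count stood on Gm10177, annotated as a transcribed processed pseudogene (chromosome 9, 37252922 to 37253365). A processed pseudogene is a copy of a spliced transcript put back into the genome. Gm10177 held 2965 counts in replicate 1 and 2662 in replicate 2, or 443 and 524 TPM. Its longer transcript is 100% identical to Sec61g over 373 bases, and its shorter one is an open reading frame of 207 bases, 68 codons and a stop, that 5 annotated Sec61g transcripts contain letter for letter. That frame is printed because it shows that reads inside it fit both loci equally.
Gm10177 and Sec61g, shared frame: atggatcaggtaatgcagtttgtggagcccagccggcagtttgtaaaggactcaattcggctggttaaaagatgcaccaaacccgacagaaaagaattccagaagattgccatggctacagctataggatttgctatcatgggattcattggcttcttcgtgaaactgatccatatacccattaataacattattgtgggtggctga
Of the counts on Sec61g and its copies, Sec61g itself received 6.97% in replicate 1 and 2.51% in replicate 2. Summed, the level was 454 TPM in replicate 1 and 528 in replicate 2, above that of Sec61b in both. In counts the order was the reverse, with 3187 and 2731 for the sum against 4661 and 4302 for Sec61b. The order in TPM thus rests on the division by length. Which locus the RNA came from cannot be read from these tables.

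**Figure D3:**
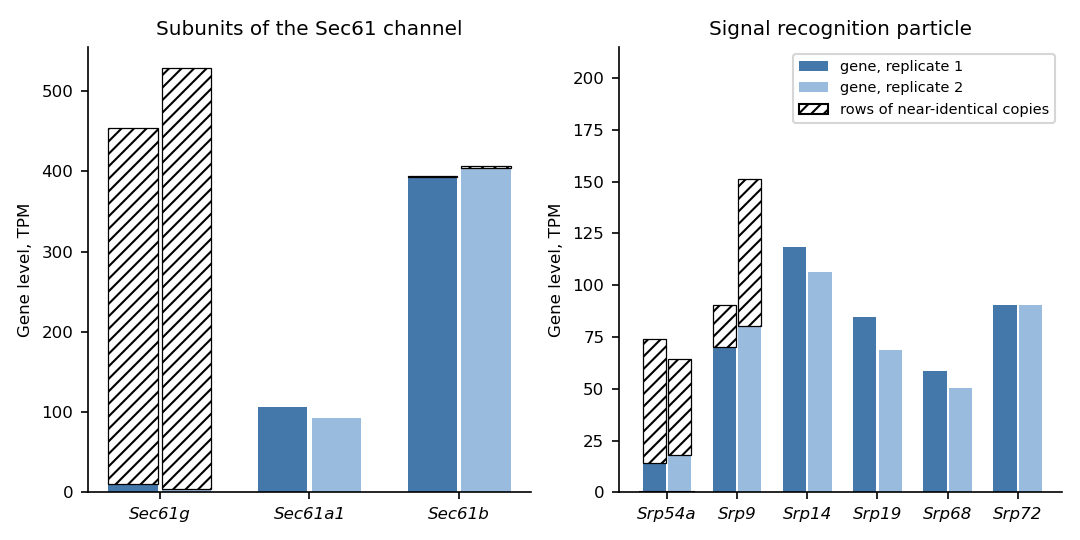
Level in TPM of the Sec61 channel subunits (left) and the signal recognition particle subunits (right), with dark bars for replicate 1 and light bars for replicate 2. Hatched parts add the rows of near-identical copies, which bring Sec61g to 454 and 528 TPM and Srp54a to 73.9 and 64.4 TPM, and which for Srp9 differ between the libraries.

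Sec62 and Sec63, which serve chains that enter after translation, were lower than Sec61a1 and Sec61b. Sec62 had 41.7 TPM in replicate 1 and 27.1 in replicate 2. Sec63 was at 26.2 TPM and 21.9 TPM. In both libraries Sec62 was the higher in TPM, by 1.60 and 1.24 times, and the lower in CPM, with 54.5 and 45.7 against 76.1 and 79.6 for Sec63.

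Of the translocon-associated protein complex, which assists the entry of some chains, 3 of 4 subunits were above 100 TPM. Ssr4 had 298 TPM in replicate 1 and 306 in replicate 2. Ssr2 was at 207 TPM and 193 TPM and Ssr3 at 169 TPM and 152 TPM. Ssr1 stood apart at 37.2 TPM in replicate 1 and 42.5 in replicate 2. Its single listed transcript is 9306 bases long, and in CPM Ssr1 had 246 and 286, more than Ssr4 with 138 and 143, so the order of these subunits rests on the division by length.

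The oligosaccharyltransferase genes ranged over 3.47 times. Rpn2 had 163 TPM in replicate 1 and 151 in replicate 2. Ddost was at 152 TPM and 154 TPM, Ostc, which ties the enzyme to the translocon, at 132 TPM and 126 TPM, and Dad1 at 124 TPM and 119 TPM. Rpn1, which with Rpn2 encodes the ribophorins, was at 81.2 TPM and 78.6 TPM. The alternative catalytic subunits had the lowest means. Stt3a, which acts while the chain enters, had 61.7 TPM in replicate 1 and 81.8 in replicate 2, and Stt3b, which acts on sites that were skipped, had 46.8 TPM and 43.8 TPM. Stt3a was the higher in both libraries.

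Calr, the lectin chaperone calreticulin (chromosome 8, 84841850 to 84846934), was the highest member with 786 TPM in replicate 1 and 642 in replicate 2, or 714 ± 102 TPM (SD, n = 2), rank 118 among protein-coding genes. Its membrane-bound relative calnexin, Canx, was at 194 TPM and 197 TPM, 3.66 times lower on average. Hsp90b1, the reticulum's HSP90, had 330 TPM in replicate 1 and 311 in replicate 2. Hspa5, the chaperone BiP that also holds the stress sensors inactive, was at 267 TPM and 285 TPM, or 276 ± 12.6 TPM (SD, n = 2). These 4 all hold the CCAAT and CCACG element shown above, as does Creld2, while Manf had no promoter to search. Manf, a small secreted stress protein, was at 229 TPM and 189 TPM and stood 5.84 times above Creld2, another secreted stress-response protein, at 36.4 TPM and 35.1 TPM.

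The partners of BiP were lower than BiP itself. Sdf2l1 had 80.3 TPM in replicate 1 and 78.2 in replicate 2. Hyou1, which exchanges the nucleotide of BiP, was at 59.6 TPM and 68.4 TPM. The J-domain cochaperones followed, Dnajb11 with 72.1 TPM in replicate 1 and 46.7 in replicate 2, Dnajc3 with 27.6 TPM and 29.9 TPM, and Dnajb9 with 29.0 TPM and 22.0 TPM. The ranges of Dnajc3 and Dnajb9 overlap.

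Of the disulfide isomerases, P4hb, the founding member of the family, had 439 TPM in replicate 1 and 415 in replicate 2, 2.67 times Pdia3 on average. Pdia3, which works with the lectin chaperones, was at 170 TPM and 151 TPM. Pdia6 was at 167 TPM and 150 TPM, and its range overlaps that of Pdia3. Pdia4 was the lowest at 74.4 TPM and 67.3 TPM. All 4 were somewhat higher in replicate 1.

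Among the sensors, Ern1 was the highest, with 38.8 TPM in replicate 1 and 40.5 in replicate 2. Atf6 was at 13.0 TPM and 9.22 TPM. Eif2ak3 had 6.52 TPM in replicate 1 and 6.28 in replicate 2, the lowest member by mean TPM. Ern1 thus stood 6.20 times above Eif2ak3 and 3.57 times above Atf6 on average, and the 3 did not overlap. Xbp1 was at 94.3 TPM and 94.96 TPM, or 94.6 ± 0.474 TPM (SD, n = 2), and Atf4 at 99.8 TPM and 92.9 TPM, or 96.4 ± 4.84 TPM, levels that overlap. Ddit3, the factor CHOP that is induced under lasting stress, had 9.13 TPM in replicate 1 and 6.69 in replicate 2, 12.2 times below Atf4, and rested on 189 and 129 counts. Its count is uncertain because 68 exonic bases overlap Mars on the opposite strand, a gene at 50.1 TPM and 30.2 TPM, and strand-aware counting is not stated.

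Xbp1 becomes the active factor when IRE1 cuts 26 bases out of its messenger RNA. That stretch lies at chr11:5524279-5524304 on the + strand, in the coding sequence of Xbp1-201, and is shown in capitals with 24 coding bases on each side.
Xbp1: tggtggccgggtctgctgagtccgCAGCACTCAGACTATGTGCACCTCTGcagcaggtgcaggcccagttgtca
Xbp1-201, which contains the stretch, took 91.0% of the gene's transcript abundance in replicate 1 and 86.7% in replicate 2. Xbp1-203 and Xbp1-204 contain it too, and Xbp1-202, annotated as a retained intron, lacks the whole region and took 4.10% and 6.39%. The reference holds no transcript from which only the 26 bases are missing, so these tables cannot give the spliced share.

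Of the degradation genes, Herpud1, a membrane adaptor of the ubiquitin ligase, had 39.3 TPM in replicate 1 and 38.7 in replicate 2. Sel1l, the scaffold of the ligase, was at 28.4 TPM and 41.6 TPM, and Syvn1, the ligase itself, at 16.3 TPM and 22.4 TPM. Edem1, which marks misfolded glycoproteins, was at 30.7 TPM and 28.1 TPM. Of the channel-forming derlins, Derl1 was at 25.6 TPM and 28.7 TPM and Derl2 at 11.7 TPM and 16.2 TPM, so Derl1 was the higher in both libraries. The exons of Derl2, Syvn1, Manf and Hsp90b1 overlap an expressed gene on the opposite strand too, Mis12 by 231 bases, Mrpl49 by 91, Dcaf1 by 146 and 1810014B01Rik by 415, all of them under 30 TPM. On the same strand Manf shares 14 exonic bases with Rbm15b, at 9.23 TPM in replicate 1 and 14.5 in replicate 2. Hsp90b1 shares 84 with Gm15344, at 0 and 5.05 TPM.

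Ordered by mean TPM, 32 of 48 neighbouring pairs of members had overlapping ranges. The first 7 places, Calr, P4hb, Sec61b, Hsp90b1, Ssr4, Hspa5 and Manf, did not overlap from one to the next. In CPM Calr stayed highest at 959 in replicate 1 and 737 in replicate 2. Hsp90b1 (598 and 603) then stood above P4hb (584 and 553). Sec61b (115 and 121), Ssr4 (138 and 143) and Manf (116 and 96.8) lay below Canx (512 and 525). These places in TPM thus rest on the division by length. With its copies summed, Sec61g at 491 TPM on average would stand between Calr and P4hb, though that place rests on this division too. At the low end Atf6 was apart from Ddit3, while Ddit3, Sec61g and Eif2ak3 overlapped from one to the next.

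The libraries gave similar levels for most members. Over 1.5-fold apart on log2(TPM + 1), a scale that understates ratios of low genes, were 3 of 49 members. Of the 46 members at 10 TPM or more on average 2 were, against 13.2% of protein-coding genes at that level. Those 2 were Sec62 and Dnajb11, both lower in replicate 2, and the third was Sec61g. The median fold between the libraries was 1.11 for the members and 1.18 for protein-coding genes at 10 TPM or more. Those genes were not matched to the members in level, so the contrast is description only. On average 17 of 49 members, but 632 of these 6095 genes, stood at 100 TPM or more. On CPM 0 of the 46 were over 1.5-fold apart, against 9.42% of protein-coding genes, and Sec61g remained as 1 of 49.

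**Figure D4:**
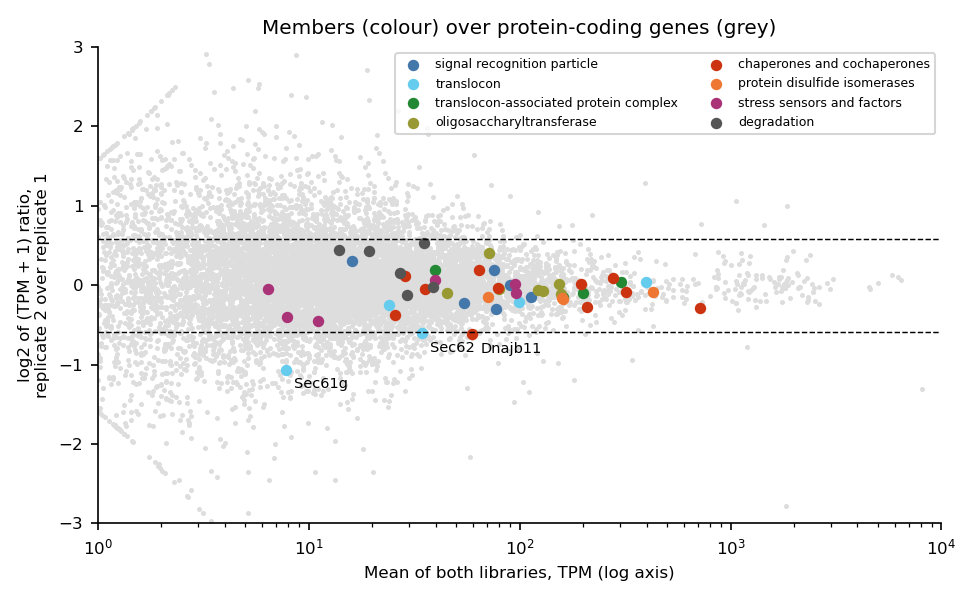
Log2 ratio of TPM + 1 in replicate 2 over replicate 1 against the mean TPM of both libraries (log axis), with members in the colour of their role and protein-coding genes of 1 TPM or more in grey. Dashed lines mark 1.5-fold, grey genes beyond 3 on the vertical axis are not drawn, and Sec61g, Sec62 and Dnajb11 are the members outside the lines.

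The transcript tables give each transcript's percent of its gene's TPM, and transcript types here are those of GENCODE M21. The same transcript led in both libraries for 45 of 49 members, against 76.2% of protein-coding genes with 20 counts or more. With 100 counts or more it was 45 of 48 members, against 77.8%. Only 1 transcript row is listed for 14 of the 49, which fixes their lead, and that share was not counted among protein-coding genes. Among the 49 the exceptions were Herpud1, Sec61g, Sec62 and Srp14. Herpud1-201 took 58.7% in replicate 1 and 0% in replicate 2, and Herpud1-205, coding as well, took 24.1% and 69.9%. Srp14-204, a processed transcript without an annotated reading frame, took 51.6% and 40.7%, and the coding Srp14-201 took 47.2% and 58.7%. Sec61g was led by Sec61g-202 with 46.9% in replicate 1 and by Sec61g-201 with 29.0% in replicate 2. The replicate 2 lead rests on 10.5 counts, fewer than the 16.3 on Sec61g-202 there.

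Sec62-203, a processed transcript of 558 bases, took 58.9% in replicate 1 and 41.8% in replicate 2, and Sec62-201, coding and 3967 bases long, took 41.2% and 55.6%. Over coding transcripts alone Sec62 had 17.2 TPM in replicate 1 and 15.1 in replicate 2, which is 1.14-fold apart against 1.54-fold for the whole gene. Dnajb11 had a transcript of 546 bases with no type in the reference at 33.3% and 14.6%, and over coding transcripts it was at 48.1 TPM and 39.9 TPM, 1.21-fold apart. By that measure Manf, Pdia3, Stt3a and Syvn1 were over 1.5-fold apart besides Sec61g, and 0 of these 4 were so by gene TPM. The background was also larger by that measure, with 15.7% of the protein-coding genes compared so far apart, against 13.2% by gene TPM.

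Over coding transcripts alone, several of the orders given above did not hold in both libraries. Stt3a had 41.0 TPM in replicate 1, below Stt3b, and 70.5 in replicate 2. Srp72 had 48.8 TPM and 58.5 TPM, against 53.1 TPM and 40.9 TPM for Srp68, and was the lower of the pair in replicate 1. Srp14, at 56.0 TPM and 63.2 TPM, was below Srp9 at 69.0 TPM and 76.4 TPM in both. Sec62 was lower than Sec63, which had 15.3 TPM and 15.7 TPM, in replicate 2.

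Among the highest members P4hb had 283 TPM and 302 TPM by this measure, below Sec61b in both libraries, and its range overlapped that of Hsp90b1 at 293 TPM and 270 TPM. Ssr4 at 241 TPM and 227 TPM overlapped Hspa5 at 236 TPM and 253 TPM, and Manf with a mean of 179.9 TPM came below Ssr2 at 200.1 TPM and Canx at 189.6 TPM. Calr remained the highest at 573 TPM and 406 TPM. P4hb was then lower in replicate 1, unlike the other disulfide isomerases. Among the factors Xbp1 at 90.4 TPM and 88.9 TPM no longer overlapped Atf4, and Atf6 at 11.8 TPM and 8.39 TPM overlapped Ddit3 at 9.13 TPM and 6.40 TPM.

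On the mean of both libraries the leading transcript was annotated as protein-coding for 46 of 49 members, against 89.4% of protein-coding genes. Rpn2, Sel1l and Sec62 were the others. Rpn2-206, a processed transcript of 2314 bases, took 68.3% in replicate 1 and 59.1% in replicate 2, so that coding transcripts of Rpn2 were at 41.5 TPM and 52.5 TPM, below Rpn1 in both libraries and, with a mean of 47.0 TPM, below Stt3a at 55.8 TPM. Sel1l-202, of 509 bases, took 43.3% and 53.9%, and coding transcripts of Sel1l were at 12.5 TPM and 12.1 TPM. Coding transcripts still held 88.3% and 84.7% of the Sel1l counts, because a short transcript needs few reads for a high TPM. In Calr a retained-intron transcript of 943 bases, Calr-204, took 24.2% and 32.0%. The other factors were simple, with Atf4-201 at 100% in both libraries, Atf6-201 at 91.0% in both, and Ddit3-201 at 91.3% and 95.8%.

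**Figure D5:**
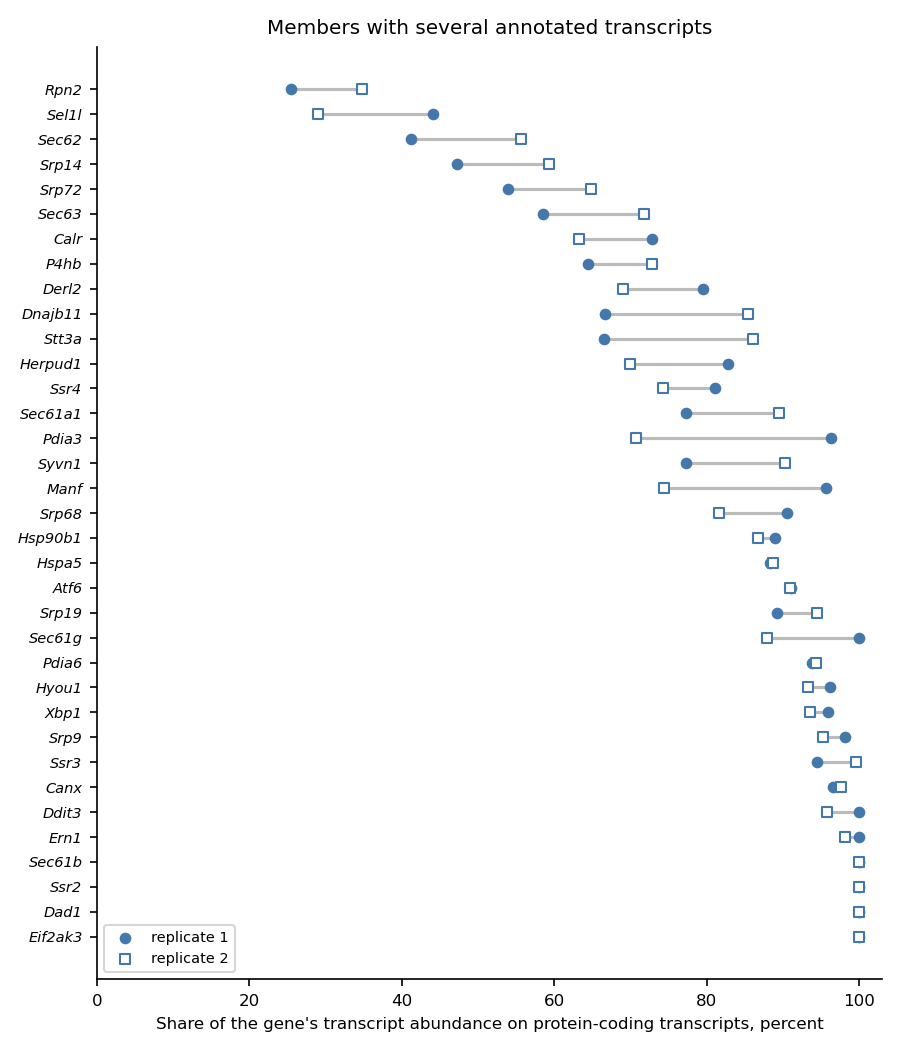
Share of the gene's transcript abundance on transcripts annotated as protein-coding, in percent, for the 35 members with several transcript rows, with replicate 1 as filled circles and replicate 2 as open squares. Rpn2 and Sel1l lie lowest, below 50% in both libraries, and Sec62 and Srp14 lie on either side of it.

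Most other genes of the route were expressed as well. Of 70 further genes 68 had a row, and their median of the mean TPM was 26.7. Among them 62 reached 1 TPM in both libraries, against 45.6% of protein-coding genes, and 54 reached 10 TPM in both. For 10 TPM the share of all genes is known on the mean alone, 6095 of 21474 protein-coding genes. Targeting and signal peptidase genes reached 10 TPM in 10 of 10 cases, led by the peptidase subunits Sec11c (149 TPM in replicate 1 and 182 in replicate 2) and Spcs1 (115 and 132 TPM). Other oligosaccharyltransferase subunits and N-glycan genes were led by Tmem258 (211 and 171 TPM) and Krtcap2 (149 and 152 TPM). Glucosidases and quality control genes were led by Ganab, a glucosidase II subunit (48.6 and 53.3 TPM), and Lman1, a cargo receptor (49.3 and 44.1 TPM). Other folding enzymes were led by the prolyl isomerase Ppib (257 and 239 TPM) and by Erp29 (196 and 202 TPM), and other degradation genes by the extracting ATPase Vcp (99.9 and 99.5 TPM) and Selenos (61.1 and 54.3 TPM).

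The other stress response genes were mixed. The highest were Eif2s1, the PERK substrate (44.7 TPM in replicate 1 and 40.2 in replicate 2), and Nfe2l2 (43.2 and 38.5 TPM). Trib3 and Atf3, known to be induced downstream of ATF4 and CHOP, and Ern2, the IRE1 paralog of mucosal epithelium, had 0 counts in both libraries. With 0 counts a gene could still lie anywhere under 0.0741 CPM in the first library and 0.0841 CPM in the other. Chac1, another ATF4 target, had 1 count in replicate 1 and 0 in replicate 2. Not all ATF4 targets were at 0, since Asns was at 18.7 TPM and 15.9 TPM and Sesn2 at 1.63 TPM and 1.89 TPM. Ppp1r15a, a phosphatase subunit downstream of ATF4, was at 3.96 TPM and 10.6 TPM from nearly equal counts of 251 and 243, or 6.20 and 6.81 CPM. Uggt2, a glucosyltransferase of quality control, was at 0.440 TPM and 4.04 TPM from 33 and 77 counts, whereas its paralog Uggt1 was at 30.5 TPM and 32.2 TPM.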

How the data were processed

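Values were used as the authors deposited them, per library and per gene or transcript. Expected counts are estimated read counts, deposited with TPM and FPKM, which are scaled by effective length, and with a percent of each gene's TPM per transcript in the deposited transcript tables. The build was mm10 and the annotation M4, as the deposited text files say. The sources used here do not give the aligner, counting tool or strand setting.

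Members, lists and tests were chosen with earlier results of these data known. Symbols and types are those of GENCODE M21 (also GRCm38), joined by Ensembl identifier without version, and 42462 of 43346 Ensembl rows matched. All 49 members and 68 of 70 other genes had a row. CPM are counts scaled to the library total. Wilson intervals (95%) used counts rounded to whole numbers. Copies are transcripts of other rows with 95% identity or more over at least 200 bases (BLAST 2.17.0). Promoters are those of RefSeq. Counts of genes over 1.5-fold apart used a pseudocount of 1. Of the steps, only the CPM ratio and the search for the first element were tested on simulated data, with counting error alone. No p-value was computed. Protein sequences were not analysed here.

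All members are named, with the 2 highest genes of each other list and those under 1 TPM in both libraries. Adcy3, Alg12, Hnrnpa3, Pan2, Asns, Ppp1r15a, Sesn2, Uggt1, Uggt2 and the copies were named after their values were seen. Software was Python 3.11.15, pandas 2.3.3, scipy 1.17.1, and in R 4.3.3 edgeR 4.0.16 and DESeq2 1.42.0 for scaling factors alone.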

Additional observations from a re-analysis of the deposited data

How the results depend on the processing

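Of 36 alternative values of the main results, 25 stayed within their tolerance. That was 1.5-fold for counts, a wide band where a count has a ceiling, and the SD over the libraries for the members' level. Every alternative of the level lay outside it. Direction was scored among these for the level alone, where 0 changed it. The members' median log2(TPM + 1) exceeded that of all protein-coding genes by 5.62. The excess was 6.01 on CPM, 6.15 on TPM without spike-ins, mitochondrial genes, ribosomal RNA and 4 abundant loci, 2.32 against genes at 1 TPM or more, 5.69 with the near-identical copies summed, 5.49 over coding transcripts alone, and 5.70 to 5.71 with either replicate left out. Summed copies, coding transcripts alone and CPM for the library ratio were chosen after seeing the data. The count of members over 1.5-fold apart, 3 on TPM, was 1 with TMM factors, with DESeq2 size factors and on CPM, and 5 over coding transcripts alone. With copies summed it was again 3, Srp9 in place of Sec61g. The share of the protein-coding background over 1.5-fold apart moved the same way. It was 13.2% on TPM, 8.71% with TMM factors, 8.74% with DESeq2 size factors, 9.42% on CPM and 15.7% over coding transcripts alone. Leaving a replicate out kept 49 detected members, 1144 to 1153 of 1176 member pairs and 27 to 28 of 28 role pairs in order, 45 to 47 coding leads and 62 to 63 other genes at 1 TPM. CPM kept 923 member pairs and 23 role pairs. The translocon median was 99.7 TPM with copies summed, against 34.4 TPM. No paired analysis was possible because there is 1 group. With 2 libraries the difference between them has no replicate check. Depth limits Ddit3, and Sec61g is limited by how reads shared with its copies were assigned. The spliced form of Xbp1 and reads shared by copies are limited by the annotation.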
